A study of Zea mays with 12 samples.

Results

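The transcriptome of normal maize endosperm was described from the 4 libraries whose genotype label is WT, out of 12 libraries in the series. All 4 came from whole endosperms of the inbred line W22, taken 16 days after pollination from self-pollinated plants grown in the field. The series describes them as biological replicates, which are called WT replicates 1 to 4 here. The study set such endosperm beside nkd1-Ds and nkd2-Ds mutants, which are not compared here. W22 is a single inbred background, so the values describe 1 line, tissue and stage. Polyadenylated RNA was sequenced from strand-specific libraries. As no other group entered, no test was made, and all statements are descriptions of the spread over these 4 libraries.

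The endosperm feeds the embryo and the seedling, and is made of a few cell types. Starchy endosperm cells fill the interior and store starch and protein, the aleurone is the outermost layer, and the basal endosperm transfer layer takes up sugars and amino acids from the mother plant. Most of the stored protein is zein, the prolamin of maize, which is made on the rough endoplasmic reticulum and packed into protein bodies. Alpha zeins, of about 19 and 22 kDa by their usual names, form the core of the protein body, and beta and gamma zeins form its outer shell. The transcription factors Opaque2 and prolamin-box binding factor (pbf1) activate zein genes.

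Expression was measured for 34348 genes in units of RPKM, in which reads are divided by gene length in kilobases and by a scaling factor that the authors set for each library. Whole reads could be recovered from the RPKM values. They summed to 39.8, 45.1, 44.8 and 48.0 megareads in WT replicates 1 to 4, whereas the scaling factors were 28.5, 31.1, 27.3 and 29.6 megareads. Whether reads that match several copies were counted at each copy was not tested, so these sums may exceed the number of reads sequenced. Summed RPKM therefore differed between libraries, at 1013380, 1046140, 1211720 and 1209480. A gene of the median length of 1534 bases with 3 reads would have 0.0629 to 0.0715 RPKM, which is the level that a count of 0 still allows. The 6 pairs of libraries had Pearson correlations of 0.988 to 0.991 over 34348 genes on the log2(RPKM + 1) scale. Of 8040 genes whose mean reached 10 RPKM, 20 differed by at least 2-fold between WT replicates 1 and 2, and 70 between WT replicates 2 and 4, the fewest and the most of the 6 pairs.

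Markers of the endosperm's own cell types were checked first. Starchy endosperm markers (36 matched of 37) summed to 476766 to 632934 RPKM per library, 49.3% of all RPKM on average. Aleurone markers (11 matched of 15) summed to 268 to 292 RPKM, with the pigment regulators c1 and r1 both under 1 RPKM. Basal transfer layer markers (8 of 10) ranged from 165 to 834 RPKM, a wider relative range than the other groups of markers above 10 RPKM. Markers of the embryo-surrounding region (3 of 4) summed to 2.14 to 6.37 RPKM. Embryo markers (4 of 10) summed to 80.4 to 94.3 RPKM, most of it from the oleosin gene ole16, and markers of pericarp and green tissue (3 of 8) to 1.248 to 1.759 RPKM, with p1 and psah1 under 1 RPKM.

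A few genes held most of the signal. The gene with the highest mean took 10.6% ± 0.610 of the summed RPKM (mean ± SD, n = 4, here and for all shares). The 5 highest genes took 32.3% ± 1.64, the 10 highest 46.0% ± 1.96, the 30 highest 62.9% ± 3.21 and the 100 highest 69.0% ± 2.89. The next steps added less: 1000 genes held 79.6% ± 1.999, 5000 genes 90.2% ± 0.959 and 10000 genes 95.2% ± 0.462. In each library 4 genes were enough for 25% of summed RPKM. The number needed for 50% was 14, 14, 12 and 12 in WT replicates 1 to 4. For 75% it was 630, 591, 239 and 259 genes, so WT replicates 3 and 4 needed fewer than replicates 1 and 2 at both levels.

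**Figure D1:**
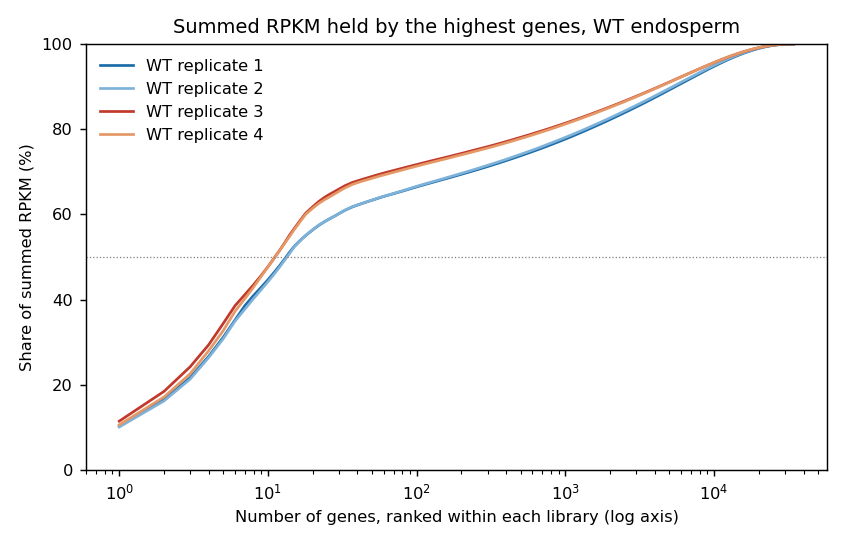
Share of summed RPKM (vertical axis, %) held by the highest genes, ranked within each library (horizontal axis, number of genes on a log scale), with 1 line for each WT library. The dotted line marks 50%, which WT replicates 3 and 4 reached at 12 genes and WT replicates 1 and 2 at 14 genes.

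RPKM divides by gene length, and many of the highest genes are short. Counted as reads instead, the 10 highest genes held 39.7%, the 100 highest 61.8%, and 20.75 genes on average were needed for 50%. Reads shared by near-identical copies may be counted more than once in either measure, which was not tested. Membership at the top was largely shared between libraries. Of genes in the top 10 of any library (11 genes), 8 were in the top 10 of all 4, and of those in the top 100 of any library (109 genes), 91 were in all 4.

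The top 30 genes by mean RPKM were 21 zein genes, 6 genes without a RefSeq entry, and sdh1, hag and sh1. z1A1_3 (GRMZM2G059620), a 19 kDa alpha zein gene, ranked highest, with 104168, 105854, 139175 and 128436 RPKM in WT replicates 1 to 4. Its identifier also matched z1A1_4 in the RefSeq table, so its reads may belong to more than 1 copy. z1A1_7 (GRMZM2G353268) followed with 63322, 63951, 84615 and 79061 RPKM. Both were lower in WT replicates 1 and 2 than in 3 and 4, by more than the gap within either pair on the authors' scale. As a share of summed RPKM z1A1_3 held 10.3%, 10.1%, 11.5% and 10.6%. There replicates 1 and 2 were still below 3 and 4, but replicate 1 was above replicate 2. Replicates 3 and 4 lay farther apart than replicates 1 and 4. z1A1_5 averaged 60392 ± 8836 RPKM (SD, n = 4) and z1A1_6 51752 ± 7605 RPKM. Reads of z1A1_7, z1A1_5 and z1A1_6 were nearly equal, at 2193722, 2184765 and 2091169 in WT replicate 3. The gaps between these genes in RPKM thus come largely from their lengths of 948, 1139 and 1273 bases. The rank order of the 6 highest genes was the same in all 4 libraries at 4 of 5 steps. The exception was z1A1_5 and the unnamed gene AF546188.1_FG005, which changed places in 2 libraries.

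**Figure D2:**
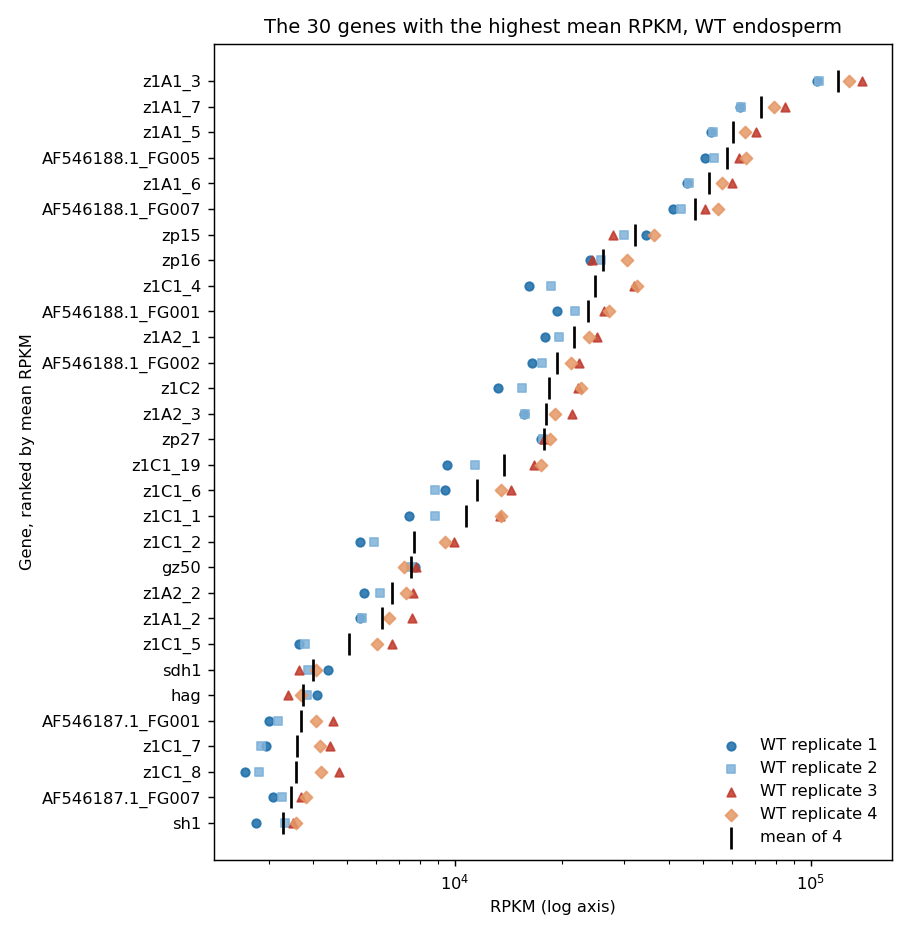
RPKM (horizontal axis, log scale) of the 30 genes with the highest mean, ranked from the top, with 1 symbol for each WT library and a bar at the mean. z1A1_3 had 104168 to 139175 RPKM and sh1, at rank 30, 2768 to 3577 RPKM. Symbols of zp27 and gz50 nearly coincide, whereas those of the z1C genes spread widely.

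Behind the alpha zeins stood genes of the other zein classes. zp15 (GRMZM2G086294), the 15 kDa beta zein gene, had 34430, 29879, 27823 and 36258 RPKM in WT replicates 1 to 4. zp16, a gamma zein gene, had 24088, 25780, 24317 and 30428 RPKM. Neither followed the order of the alpha zeins, since WT replicate 3 was the lowest or next to lowest. zp27 (GRMZM2G138727), the 27 kDa gamma zein gene, was close to constant at 17470, 17708, 17788 and 18559 RPKM. gz50, the 50 kDa gamma zein gene, had 7732, 7542, 7766 and 7220 RPKM. dzs18, a delta zein gene of high methionine content, was far lower, at 82.9, 109, 145 and 150 RPKM.

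In all, 29 zein genes held 48.1% ± 2.84 of summed RPKM and 45.0% ± 3.19 of reads. Both values would be raised if reads shared by zein copies were counted at each copy, which was not tested. The share was 45.8%, 45.5%, 51.1% and 49.9% of RPKM in WT replicates 1 to 4. The 19 kDa alpha zeins (12 genes) held 31.8% ± 1.87, of which the z1A1 genes alone held 27.6% ± 1.61 and the z1A2 genes 4.12% ± 0.263. The z1B genes matched (3) held 0.0284% ± 0.00285. RefSeq lists all 3 as pseudogenes in B73. It has 9 z1B symbols, and the 3 that it lists as protein-coding were matched to no identifier and are not analysed here, so this share does not describe the whole subfamily. The 22 kDa alpha zeins (z1C, 12 genes) held 8.79% ± 1.77, and the beta, gamma and delta zeins (5 genes) 7.52% ± 0.782.

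Zein classes did not keep constant proportions between the libraries. The ratio of summed 22 kDa to summed 19 kDa alpha zein RPKM was 0.228, 0.250, 0.302 and 0.321 in WT replicates 1 to 4. The ratio of beta, gamma and delta zeins to 19 kDa alpha zeins was 0.270, 0.256, 0.187 and 0.239. Summed z1C RPKM was 1.77-fold higher in WT replicate 3 than in replicate 1, while summed 19 kDa alpha zein RPKM was 1.34-fold higher and that of the beta, gamma and delta zeins 0.929-fold. WT replicates 1 and 2 both lay below WT replicates 3 and 4 for 22 of 22 alpha zein genes whose mean reached 10 RPKM. This order, chosen after the values were seen, held for 18.2% of all 8040 genes at that level. With each library scaled to the same sum it still held for 22 of the 22 alpha zein genes, against 1.80% of all genes. As WT replicates 3 and 4 hold more zein, this scaling lowers the other genes there. The fall from 18.2% to 1.80% thus follows from the scaling and adds no contrast. The 22 genes include near-identical copies that can share reads, so they may not be independent measurements.

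Within the z1A1 group 4 copies kept nearly constant ratios to z1A1_3, and z1A1_8 did so less. Relative to z1A1_3, z1A1_7 stood at 0.609 with a coefficient of variation (CV) of 0.787% over the 4 libraries, z1A1_5 at 0.506 (CV 0.723%) and z1A1_6 at 0.433 (CV 0.822%). z1A1_2 was at 0.0524 (CV 2.85%). z1A1_8, with a mean of 45.6 RPKM, varied more, at 0.000332, 0.000367, 0.000419 and 0.000396 in WT replicates 1 to 4 (CV 9.96%). In WT replicate 1, z1A1_7, z1A1_5 and z1A1_6 had nearly equal reads, at 1710074, 1708065 and 1629989. Their lengths are 948, 1139 and 1273 bases, so the differences between their ratios come largely from gene length. Alpha zein copies are nearly identical and can share reads, so the split between copies is uncertain. Whether shared reads hold these ratios constant was not tested. In the gene order of the RefSeq table (assembly NAM-5.0, of the inbred B73), 14 z1C1 symbols form a run with at most 1 gene between neighbours, 11 of them measured here. 9 z1A1 symbols form another run, with at most 2 genes between neighbours and 6 measured.

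z1C1_4 (GRMZM2G044625) was the highest 22 kDa gene, with 16188, 18615, 31967 and 32532 RPKM in WT replicates 1 to 4. z1C2 had 13259, 15485, 22195 and 22614 RPKM. In both genes the WT replicates 1 and 2 lay apart from replicates 3 and 4. z1C1_19 averaged 13775 ± 3913 RPKM, z1C1_6 11539 ± 2838, z1C1_1 10782 ± 3121 and z1C1_2 7685 ± 2328 RPKM (SD, n = 4). RefSeq lists 6 of the 12 measured z1C genes as transcribed pseudogenes in B73, among them z1C1_6, z1C1_1 and z1C1_2, and these 6 held 35.4% of the summed z1C RPKM. That status describes B73, not W22, and whether W22 reads of other copies were assigned to them was not tested.

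Of 6 genes among the top 30 with no RefSeq entry, 4 carry identifiers beginning AF546188.1 and 2 identifiers beginning AF546187.1. AF546188.1_FG005 had 50610, 53576, 62768 and 66084 RPKM in WT replicates 1 to 4, and AF546188.1_FG007 had 41003, 43185, 50407 and 54886 RPKM. AF546188.1_FG001 averaged 23667 ± 3686 RPKM, AF546188.1_FG002 19439 ± 2806 RPKM, AF546187.1_FG001 3703 ± 732 RPKM and AF546187.1_FG007 3475 ± 350 RPKM. No name or role is given for them in the files or in RefSeq. Together the 11 genes of both prefixes held 14.0% ± 0.624 of summed RPKM and 6.93% ± 0.405 of reads. With the 29 zeins they held 62.1% ± 3.35 of RPKM. Of these prefixes, 9 genes reached a mean of 10 RPKM. On the authors' scale 9 of the 9 were lower in WT replicates 1 and 2 than in 3 and 4. Of all 8040 genes at that level 18.2% had this order. With libraries scaled to the same sum it was 7 of the 9, against 1.80% of all genes, a share that the scaling itself lowers.

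On the authors' scale the sum of all other genes differed little between libraries, and this depends on the library factors. The zeins and the unnamed AF genes summed to 599601, 620065, 791518 and 782456 RPKM in WT replicates 1 to 4. All other genes (34308) summed to 413782, 426075, 420205 and 427023 RPKM, a mean of 421771 ± 6121 (SD, n = 4). As a share of the whole, which does not depend on the factors, they held 40.8%, 40.7%, 34.7% and 35.3%. Scaling each library to the same sum moved the median gene, relative to the mean of the 4 libraries, by 0.13, 0.09, -0.11 and -0.11 on the log2 scale in WT replicates 1 to 4. Levels of genes outside the zeins are given below on the authors' scale, without that shift.

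Outside the zeins and AF genes, the signal was spread more evenly. There the highest gene held 0.950% ± 0.0849 of the remaining RPKM, the 10 highest 6.97% ± 0.328, the 100 highest 21.2% ± 0.564 and the 1000 highest 46.6% ± 0.636. sdh1 (GRMZM2G175423), which codes for sorbitol dehydrogenase, led with 4410, 3872, 3653 and 4083 RPKM in WT replicates 1 to 4. hag (GRMZM2G304548) had 4096, 3852, 3394 and 3693 RPKM. For both genes WT replicate 3 was lowest and WT replicate 1 highest. grp1 averaged 3196 ± 711 RPKM and leg1, a legumin storage protein gene, 1520 ± 84.8 RPKM. The globulin gene glb3 averaged 921 ± 72.3 RPKM, and glb1, a globulin of embryo and aleurone, 6.02 ± 1.28 RPKM.

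Genes that turn sucrose into starch took 4 of the 7 ranks from 30 to 36. sh1 (GRMZM2G089713), a sucrose synthase gene, had 2768, 3346, 3506 and 3577 RPKM in WT replicates 1 to 4. sh2 (GRMZM2G429899), the large subunit of ADP-glucose pyrophosphorylase, was nearly constant at 3037, 2902, 3138 and 3012 RPKM. bt2, its small subunit, had 1804, 2376, 2230 and 2054 RPKM, with WT replicate 1 the lowest. bt1, the ADP-glucose transporter of the amyloplast, averaged 1038 ± 41.4 RPKM. The 11 genes of sucrose breakdown and ADP-glucose supply held 0.875% ± 0.0551 of summed RPKM, and 1.89% ± 0.0852 of reads, sh1 being 4017 bases long and z1A1_3 1691 bases.

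wx1 (GRMZM2G024993), the granule-bound starch synthase gene that makes amylose, had 3271, 3293, 3086 and 3106 RPKM in WT replicates 1 to 4. ae1, a starch branching enzyme, averaged 1253 ± 59.5 RPKM, ss1, a soluble starch synthase, 333 ± 33.2 RPKM, and sbe1, another branching enzyme, 302 ± 17.9 RPKM. The list of 10 starch synthesis genes also held low members, such as the debranching isoamylase genes iso2 (4.11 ± 0.181 RPKM) and iso3 (2.42 ± 0.209 RPKM). None of the 7 members that reached a mean of 10 RPKM had an SD of log2(RPKM + 1) above 0.139. As a share of summed RPKM the list was 0.534%, 0.542%, 0.449% and 0.443% in WT replicates 1 to 4, lower in the libraries with more zein, whereas its summed RPKM was 5413, 5675, 5444 and 5360.

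Other groups were measured beside these. Opaque2 target enzymes were led by PPDK2, a pyruvate phosphate dikinase gene, at 3148 ± 167 RPKM, followed by Ppdk1 (656 ± 28.1) and rip1, the ribosome-inactivating protein b-32 (206 ± 37.9). lkrsdh1, the lysine-degrading enzyme, had 193 ± 24.8 RPKM. Among the regulators, o2 (Opaque2) averaged 264 ± 11.3 RPKM, pbf1 (GRMZM2G146283) 103 ± 7.43 RPKM, NRP1 190 ± 13.8 RPKM and Nkd1 49.2 ± 3.41 RPKM. The 11 transcription factor genes together held 0.0614% ± 0.00532 of summed RPKM. Chaperones and folding enzymes of the endoplasmic reticulum (8 genes) held 0.101% ± 0.00610, led by the protein disulfide isomerase gene PDIL1-1 at 633 ± 62.1 RPKM, and included the binding protein gene bip1 at 113 ± 5.99 RPKM.

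Genes of protein synthesis and of carbon metabolism were measured as lists too. Of 31 cytosolic ribosomal protein genes, 14 reached 100 RPKM, against 1.6% of all genes, and 0 reached 1000 RPKM. They held 0.323% ± 0.0185 of summed RPKM. Translation factors (13 genes) held 0.295% ± 0.0223, led by the elongation factor genes elfa2 (749 ± 58.1 RPKM) and elfa3 (649 ± 58.0 RPKM). Glycolysis and fermentation genes (23) held 0.655% ± 0.0740, with gpc4 (1491 ± 149 RPKM) and gpc3 (1090 ± 108 RPKM), both of cytosolic glyceraldehyde-3-phosphate dehydrogenase, and the enolase gene eno1 (935 ± 54.0 RPKM). Heat shock protein genes (15) held 0.0861% ± 0.0119, led by hsp70-4 at 438 ± 37.9 RPKM. Of protease inhibitor and defence genes (16), sci1, a subtilisin-chymotrypsin inhibitor gene, was highest at 613 ± 86.4 RPKM, and of 12 histone genes his2a1 was highest at 72.7 ± 5.78 RPKM.

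Lists of the aleurone and of pigment synthesis differed in level. Of all 34348 genes 23.4% reached a mean of 10 RPKM. Of 15 aleurone genes 8 did, with a median of 12.004 RPKM over the list. Among them HYD3, a carotenoid hydroxylase gene, had 89.2 ± 5.56 RPKM, the oleosin genes ole16 and ole17 71.9 ± 6.31 and 31.7 ± 1.57 RPKM, and vpp1, a vacuolar proton pump, 44.2 ± 2.50 RPKM. Of 11 carotenoid and plastid isoprenoid genes 4 reached 10 RPKM, and the list's median of 3.28 RPKM was near that of all genes, 2.9996 RPKM. Among these were pds1 (GRMZM5G815358), the phytoene desaturase gene, at 13.3 ± 0.827 and y1, the phytoene synthase gene, at 12.4 ± 1.41 RPKM. The anthocyanin and flavonoid list (11 genes) had a median of 0.239 RPKM and 1 gene at 10 RPKM or more. That gene, chs1 of chalcone synthase, had 18.9 ± 0.871 RPKM, and a2 8.74 ± 0.747 RPKM. On the same list c2 and whp1 were near 0, at 0.120 ± 0.0462 and 0.0183 ± 0.0145 RPKM. The activators c1 and r1 had 0.648 ± 0.219 and 0.0690 ± 0.0484 RPKM.

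Most genes were expressed at low levels. The median gene had 2.9996 RPKM, with quartiles of 0.810 and 9.28 RPKM. A value above 0 was found in all 4 libraries for 32798 genes, in 3 libraries for 593, in 2 for 334, in 1 for 285, and in none for 338. At least 1 RPKM was measured for 24572, 24298, 24567 and 24460 genes in WT replicates 1 to 4, and for 22925 genes in all 4. The largest range was 1 to under 10 RPKM with 16505 genes, followed by 9465 genes above 0 and under 1 RPKM and 7489 genes at 10 to under 100 RPKM. Another 498 genes lay at 100 to under 1000 RPKM, 35 at 1000 to under 10000 RPKM and 18 at 10000 RPKM or more. In single libraries, the range of 1 to under 10 RPKM held 16226 to 16606 genes, and the top range 15 to 18.

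**Figure D3:**
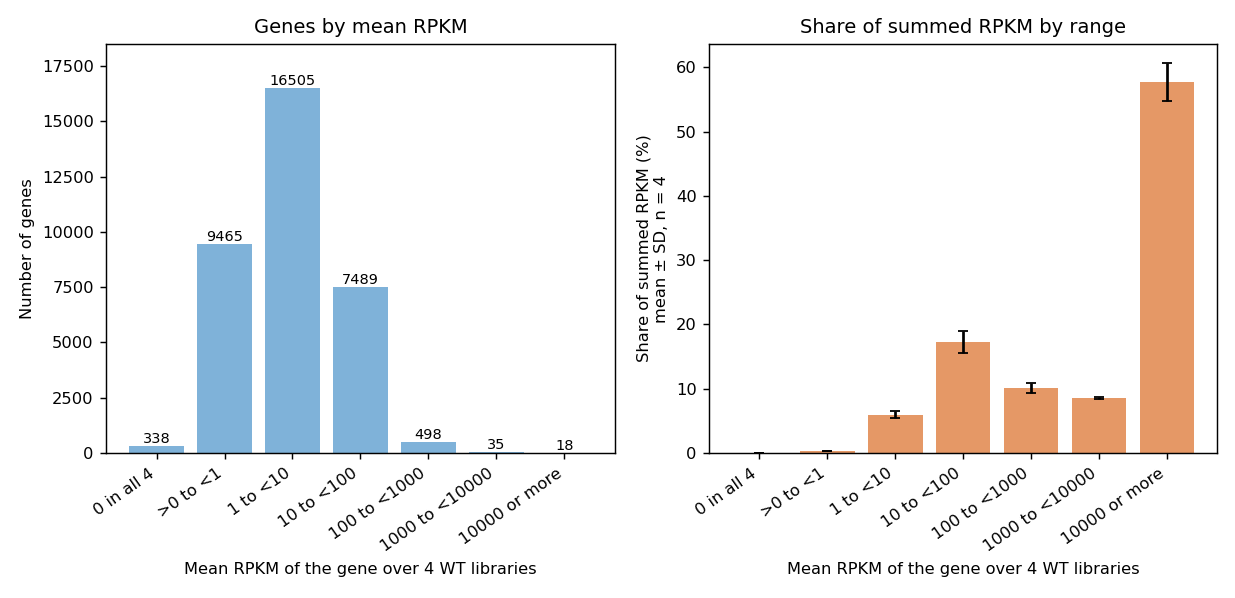
Left, number of genes in each range of mean RPKM over the 4 WT libraries. Right, share of summed RPKM held by each range (bars, mean; error bars, SD over 4 libraries). The 18 genes at 10000 RPKM or more held 57.65% and the 16505 genes at 1 to under 10 RPKM held 5.98%.

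The ranges carried very unequal shares. The 18 genes at 10000 RPKM or more were 14 zeins and 4 of the AF genes, and held 57.65% ± 2.95 of summed RPKM. The next range, with 35 genes, held 8.61% ± 0.146 and contained 7 zeins, 3 AF genes and 25 others. Genes at 100 to under 1000 RPKM held 10.1% ± 0.802, those at 10 to under 100 RPKM 17.3% ± 1.67, those at 1 to under 10 RPKM 5.98% ± 0.585 and those under 1 RPKM 0.3505% ± 0.0335. Genes of the top range were short, with a median length of 1000.5 bases, against 1681 bases at 10 to under 100 RPKM.

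On the authors' scale, agreement between libraries also differed by level. The median CV was 33.4% for genes under 1 RPKM, 12.4% at 1 to under 10 RPKM, 7.11% at 10 to under 100 RPKM and 7.21% at 100 to under 1000 RPKM. In the highest ranges it was larger again, at 10.1% and, for the 18 genes at the top, 14.7%. These values depend on the library factors. With each library scaled to the same sum, the SD of log2(RPKM + 1) fell from 0.21 to 0.08 for z1A1_3. It fell from 0.52 to 0.39 for z1C1_4, but rose from 0.04 to 0.11 for zp27 and from 0.05 to 0.18 for wx1. The CV of each range was not computed on that scale. Counting error alone would give 26.7% under 1 RPKM, 3.27% at 10 to under 100 RPKM and 0.108% in the top range. The spread between replicates exceeded these values in each of the 3 ranges.

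**Figure D4:**
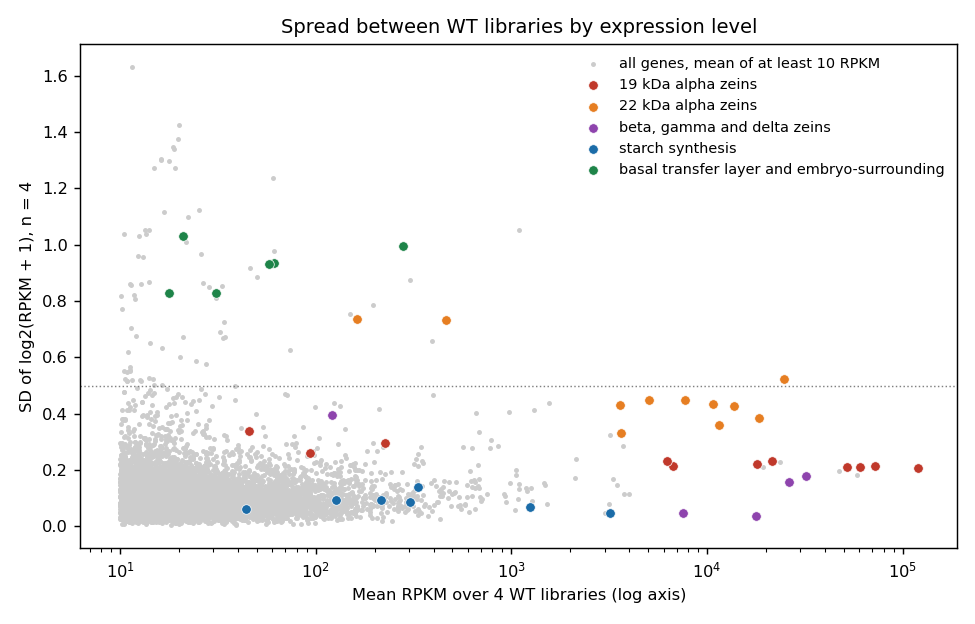
SD of log2(RPKM + 1) over the 4 WT libraries (vertical axis) against mean RPKM (horizontal axis, log scale) for the 8040 genes whose mean reached 10 RPKM, with gene lists in colour. The dotted line is the SD of 0.5 above which a gene was counted as variable. The 6 genes of the joint basal transfer layer and embryo-surrounding region list lie at 0.83 to 1.03, the 22 kDa alpha zeins at 0.33 to 0.74 and the starch synthesis genes at or below 0.14.

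Genes were called variable at an SD of log2(RPKM + 1) of at least 0.5 among those 8040 genes. By this rule 81 genes, 1.01%, were variable, 22 of them with an SD of at least 1. The median SD of all 8040 genes was 0.10. Just inside the threshold lay GRMZM2G115803 (SD 0.503) and just outside GRMZM5G844882 (0.4997) and GRMZM2G040921 (0.490). Of the 81 genes 28 had a RefSeq entry and 12 a name. An entry was found for 59.7% of all genes at 10 to under 100 RPKM and for 44.4% of all genes measured. WT replicate 1 was the highest library for 43 of them, against 19.9% of all 8040 genes, and WT replicate 4 the lowest for 37, against 22.6%.

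Basal transfer layer genes were the main named group among them. They were listed together with genes of the embryo-surrounding region. Of the 18 genes of this joint list 6 reached a mean of 10 RPKM, betl-9, betl10, betl2, betl4, betl3 and mn1, and all 6 were variable, against 1.01% of the 8040 genes. betl-9 (GRMZM2G087413) had 492, 249, 288 and 93.1 RPKM in WT replicates 1 to 4. betl10 had 104, 65.5, 53.7 and 21.5 RPKM and betl2 had 106, 57.7, 45.6 and 21.3 RPKM. WT replicate 1 was highest and WT replicate 4 lowest in each. betl4 had 53.4, 29.0, 29.3 and 12.5 RPKM, betl3 had 29.5, 17.3, 17.5 and 6.66 RPKM, and mn1 (GRMZM2G119689), the cell wall invertase that splits incoming sucrose in this layer, 33.1, 16.1, 28.9 and 6.08 RPKM. Between those libraries the 6 genes differed by 4.28-fold to 5.44-fold. Without WT replicate 4, 3 of the 6 genes were still variable.

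In all, 10 of the 18 genes of the joint list had this order, against 6.41% of the 8040 genes at 10 RPKM or more. Only 6 of the 18 reached that level, and no share was computed for genes below it. MEG1, a maternally expressed gene of the transfer layer, had 13.5, 8.17, 6.90 and 2.63 RPKM, and a meg2 gene (GRMZM2G094054) had 12.9, 7.57, 9.01 and 2.51 RPKM. MRP1, the transcriptional activator of transfer cell genes, differed less, at 1.88, 2.33, 1.92 and 1.28 RPKM. The embryo-surrounding region gene ESR1 was in another order, at 2.86, 3.70, 0.410 and 1.33 RPKM from 8 to 82 reads. Another gene of that region, esr6, was among the 10, at 2.61, 1.87, 1.73 and 1.11 RPKM from 18 to 41 reads. Summed over all 18 genes, the joint list had 864, 465, 490 and 172 RPKM, a 5.03-fold range. In bulk samples, fewer cells of a type and less RNA per cell cannot be told apart.

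The order with WT replicate 1 highest and WT replicate 4 lowest was the most frequent among variable genes. It was found for 35 of the 81 (43.2%), against 6.41% of all 8040 genes, with folds between these libraries of 2.36 to 9.39 and a median of 4.53. BURP6 (GRMZM2G406170), a gene of the BURP domain family, was the highest of them, with 1877, 950, 1235 and 338 RPKM in WT replicates 1 to 4. BURP7 had 68.2, 56.3, 44.7 and 15.6 RPKM, and the unnamed gene GRMZM2G406552 had 509, 280, 303 and 117 RPKM. GRMZM5G807780 had 114, 50.7, 62.9 and 14.0 RPKM. These genes are not on the joint list, and whether they are expressed in the transfer layer was not tested.

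**Figure D5:**
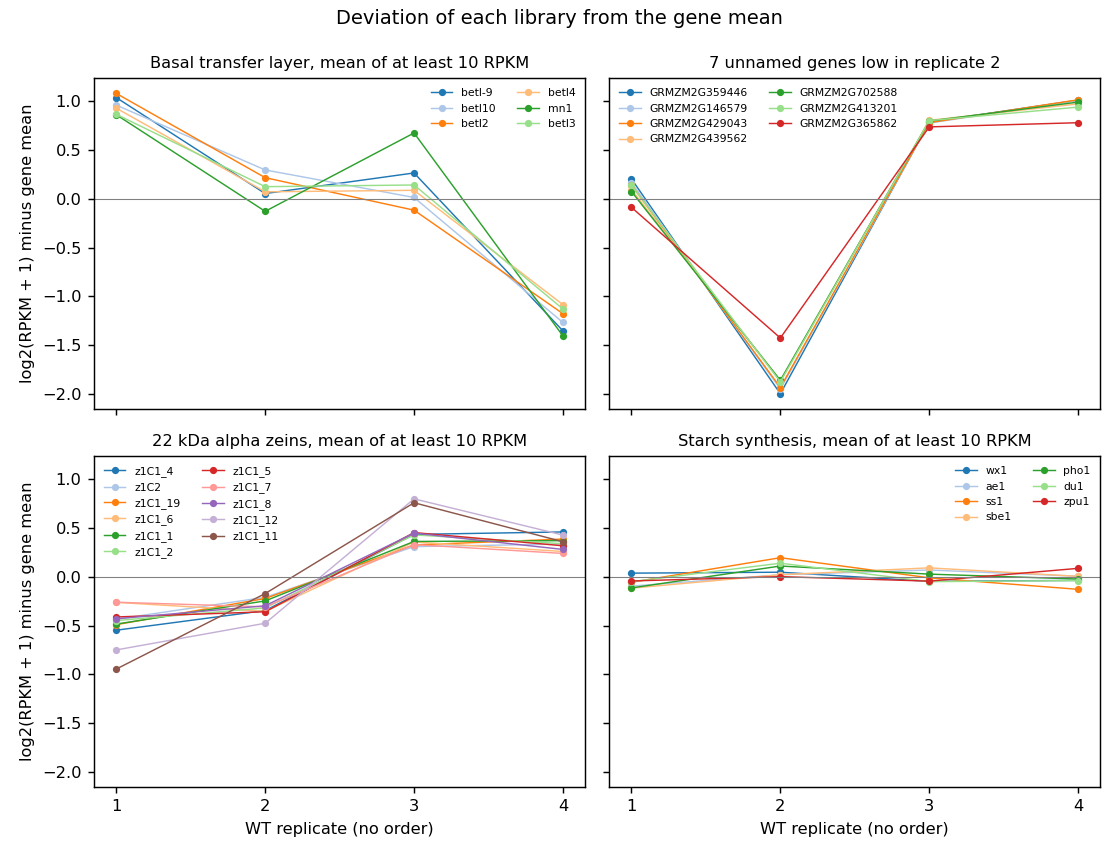
Deviation of log2(RPKM + 1) from the gene's mean (vertical axis) in WT replicates 1 to 4 (horizontal axis; replicates have no order, and lines join values of the same gene) for 4 sets of genes. The 6 basal transfer layer genes are highest in WT replicate 1 and lowest in WT replicate 4, 7 unnamed genes are low in WT replicate 2, the 22 kDa alpha zeins are higher in WT replicates 3 and 4, and the starch synthesis genes stay close to 0.

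A different set was low in WT replicate 2. Of the 81 variable genes 15 were highest in WT replicate 4 and lowest in WT replicate 2, an order held by 7.61% of all 8040 genes. Among these 15, 7 unnamed genes of similar length were picked out after their values were seen. GRMZM2G359446 had 17.6, 3.05, 26.9 and 31.6 RPKM in WT replicates 1 to 4, and GRMZM2G146579 had 16.3, 2.997, 25.4 and 30.03 RPKM. Over the 7 genes the values were 9.79 to 17.6 RPKM, 2.71 to 3.27 RPKM, 18.1 to 26.9 RPKM and 18.7 to 31.6 RPKM. The ratio of GRMZM2G146579 to GRMZM2G429043 stayed between 0.977 and 1.01 in all 4 libraries. Near-equal values of this kind can come from copies that share reads, so the 7 genes may not be independent measurements.

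Other variable genes were seen singly or in small sets. GRMZM2G355761 had the highest SD (1.63), with 13.6, 26.7, 1.07 and 4.73 RPKM in WT replicates 1 to 4. AC183514.3_FG005 (SD 1.43) had 32.2, 2.77, 25.5 and 19.2 RPKM, low in WT replicate 2 alone. The short genes GRMZM2G551758, GRMZM2G100273 and GRMZM2G135351, of 132, 196 and 196 bases, were highest in WT replicate 4, at 35.1, 36.1 and 44.7 RPKM. In WT replicate 1 these 3 genes had 3.19, 4.84 and 7.34 RPKM, from 80 reads in all. HRGP, a hydroxyproline-rich cell wall protein gene, had 25.95, 6.92, 6.37 and 11.8 RPKM, high in WT replicate 1. Among the zeins 3 were variable, z1C1_4 (SD 0.52), z1C1_11 (0.74) and z1C1_12 (0.73). With libraries scaled to the same sum, z1C1_4 had an SD of 0.39 and was no longer past the threshold.

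At the other end, some genes of high level hardly differed between libraries. Of 551 genes whose mean reached 100 RPKM, 50 (9.07%) had an SD of log2(RPKM + 1) under 0.05, and the median SD was 0.11. ALDH7 (GRMZM2G130440), an aldehyde dehydrogenase gene, had the lowest SD (0.02), with 244, 248, 241 and 246 RPKM in WT replicates 1 to 4. RPS27A, which codes for a ribosomal protein fused to ubiquitin, had 137, 133, 134 and 138 RPKM. GRMZM2G130062 had 423, 436, 431 and 441 RPKM. The 7 others of the 10 lowest had no name, such as GRMZM2G135588 at 219 ± 3.10 RPKM. wx1, sh2, zp27 and gz50 were also under 0.05, though their levels were 7565 RPKM or more for the gamma zeins and 3022 RPKM or more for the starch genes.

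This stability depends on the authors' scale. With each library scaled to the same sum, 11 genes were under an SD of 0.05 and the 10 genes with the lowest SDs on the authors' scale had SDs of 0.11 to 0.16, while wx1 had 0.18. On that scale zp27 held 1.72%, 1.69%, 1.47% and 1.53% of summed RPKM and wx1 0.323%, 0.315%, 0.255% and 0.257% in WT replicates 1 to 4. On the authors' scale, where 50 genes were under 0.05, leaving out each library in turn gave 66 to 125. The count was 125 without WT replicate 1 and 83 without WT replicate 2. An SD over fewer libraries scatters more, so a higher count is not by itself a trait of the library left out.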

How the data were processed

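The deposited tables hold 1 value per gene, taken here as RPKM made by the authors; the file headers name only the sample, so the unit was judged from the values. Per the submitters' processing notes, the tools were TopHat2 2.1.1, Cufflinks 2.2.1, featureCounts and FastQC, whose roles are not recorded. The strand setting, the annotation and the genome build are likewise not given in the sources used here. Reads of overlapping, antisense or near-identical genes may therefore not have been told apart. The libraries were made from poly(A) RNA, per the labels' protocols.

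Within a gene, RPKM values were whole multiples of 1 step. Lengths, factors and whole reads were recovered for 34307 of 34307 genes above 0 in any of the 12 tables (tolerance 0.02 reads). Where several lengths gave whole reads the smallest was taken, so length and reads may be understated for genes with few reads. The 8 mutant tables served for this recovery of lengths, factors and whole reads alone. Of 500 controls with shifted values 1 came out whole. Limits from counting cover counting error only. Groups came from the genotype label. With 1 group there is no count model and no test.

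Shares were computed per library over all genes. Variation was the SD of log2(RPKM + 1), with a pseudocount of 1, among genes whose mean reached 10 RPKM (variable at 0.5 or more) or 100 RPKM (stable under 0.05). The steps were run on simulated data with known spread before use, and the outcome is not reported here. Identifiers matched a RefSeq table (NAM-5.0, B73) for 15236 of 34348 genes, 462 of them to several entries. The genes named are the 30 highest, the 25 most and 10 least variable, with a few examples of the unnamed ones, and up to 4 members per list, plus defining markers near 0. HRGP, BURP7, GRMZM2G406552, dzs18, grp1, iso2, iso3, MEG1, meg2, MRP1, ESR1, esr6 and some other list members were added after their values were seen. Members and lists were chosen with earlier results of these data known, and the lists of storage proteins other than zeins, ribosomal proteins, translation factors, glycolysis, heat shock, protease inhibitors and histones were built after symbols had been seen. Python 3.11.15, numpy 2.4.6, pandas 2.3.3 and matplotlib 3.10.9 were used. Alternatives were another scaling, reads in place of RPKM, zeins left out, other pseudocounts and minimums, and each library left out in turn.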

Additional observations from a re-analysis of the deposited data

Results flagged for a closer look

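Of 155 values checked, 4 had 1 library far from the other 3, judged by the gap to the nearest library over the whole range, against the 95% critical value of Dixon's test for 4 samples. Chance alone flags about 1 in 20. gpc3 was low in WT replicate 3, at 929 RPKM against 1137, 1159 and 1135 RPKM in WT replicates 1, 2 and 4 (ratio 0.894). GRMZM2G027378, 1 of the 10 least variable genes, was low in WT replicate 4, at 116.5 RPKM against 120.8, 121.1 and 121.3 RPKM (ratio 0.8851). y1 was high in WT replicate 4, at 14.49 RPKM against 11.52, 11.65 and 11.89 RPKM (ratio 0.8763). elfa2 was low in WT replicate 1, at 663 RPKM against 766, 782 and 785 RPKM (ratio 0.8434).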

How the results depend on the processing

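Scaling each library to the same sum left the shares of top genes and lists as they were, by construction. As reads, the top 10, 30, 100 and 1000 genes held 39.7%, 54.8%, 61.8% and 75.1%, 20.75 genes held 50%, and zeins, sucrose genes and starch genes held 45.0%, 1.89% and 1.03%. With the 29 zeins left out and the AF genes kept, the top 10, 30, 100 and 1000 genes held 29.3%, 34.9%, 42.0% and 61.0%. In that setting 310 genes held 50% and 9338.5 held 90%, and sucrose and starch genes held 1.69% and 0.946%. With the AF genes also left out, the top 10, 30, 100 and 1000 genes held 6.97%, 12.5%, 21.2% and 46.6%. By median, 623 genes were at 0. Variable genes numbered 49 with a pseudocount of 10, 481 with a minimum of 1 RPKM, 9 with 100 RPKM and 563 with none. Least variable genes numbered 1001 with a minimum of 10 RPKM, 4 with 1000 RPKM, and 11 with libraries scaled to the same sum, a setting chosen after seeing the data. Leaving out each library gave 66 to 125 least variable genes, also chosen after seeing the data, and 60 to 94 variable genes, of which 42 to 69 were shared with the 81. Over single-library omissions the top 10 held 45.4% to 46.6% and all zeins 47.1% to 49.0%. Amino acid makeup and promoter motifs were not run, since no sequences were used here. No paired analysis was possible because only 1 group was described and no result comes from a test. Genes under 1 RPKM are limited by depth.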
